A study of Mus musculus with 15 samples.

Results

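The 10 genes described here, Per1, Per2, Per3, Cry1, Cry2, Arntl (BMAL1), Clock, Dbp, Tef and Nfil3, make up the core of the circadian clock and its first output. They were chosen by name, among 24336 genes with a symbol on the array, and are measured by 12 probes, since Per1 and Dbp have 2 probes each. The tumors are 5 hepatocellular carcinomas (HCC) of p53f/f mice, which carry floxed Trp53 alleles and served as controls, 5 HCC of p53LKO mice, in which Trp53 is deleted in the liver, and 5 intrahepatic cholangiocarcinomas (labelled ICC) of p53LKO mice. All mice were injected with CCl4, a liver toxin that causes chronic damage and fibrosis, at 0.5 µl per g of body weight for 16 weeks. RNA came from whole tumor tissue, and the labels give neither the age at which each mouse was killed nor the time of day. In such bulk RNA, fewer cells of a type and less RNA per cell cannot be told apart.

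The clock is a feedback loop of transcription. ARNTL and CLOCK bind E-boxes and switch on the Per and Cry genes, whose proteins return to block ARNTL and CLOCK. ARNTL and CLOCK also drive Nr1d1 and Nr1d2 (REV-ERB alpha and beta), repressors that compete with the ROR receptors at the promoters of Arntl and Nfil3, and the PAR bZIP factors Dbp, Tef and Hlf, which oppose the repressor NFIL3 at D-boxes. In mouse liver, RNA of Arntl, Npas2 and Nfil3 peaks in the part of the day opposite to that of Nr1d1, Dbp and Per3, so in normal liver their levels depend on the time of day.

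Levels are given as the log2 signal of a probe relative to the 75th percentile of its array, so that 1 unit is a 2-fold difference, and a level is set only against other levels of the same probe. A gene was counted as called where limma gave an adjusted p under 0.05 over all probes tested and the fold change was over 2. The probe named Trp53 is placed by the array design on chromosome 17 of mm9, not the chromosome of the gene in RefSeq, so it may not measure Trp53 and is a weak check of the deletion. It read -1.27 to -0.68 in the p53f/f HCC, -3.86 to -2.75 in the p53LKO HCC and -4.19 to -2.31 in the p53LKO ICC. Between the p53LKO groups the tumor labels were borne out by markers, since 4 of 6 hepatocyte markers were called lower and 4 of 6 cholangiocyte markers higher in ICC than in HCC. The share of probes well above background was 37.0% to 70.1% per array, the lowest shares being those of arrays in the lower row of a slide, which held every ICC and the p53LKO HCC of mice 3976 and 5283 and none of the p53f/f HCC. The weakest signal that counted as measured was -5.13 to -3.67 in the upper rows and -3.19 to -2.13 in the lower rows.

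The promoters of the clock genes and of their partner Nr1d1 show the letters through which these loops are usually described. In RefSeq windows from 250 bases before to 50 bases after each start (GRCm38.p6), 9 of the 10 genes were found, with 14 starts, and 7 of them held at least 1 of the motifs searched on both strands. Shown are upstream stretches with 3 kinds of match in capitals, an E-box (CACGTG, in 7.15% of all 32817 windows) or the related E'-box (CACGTT, read as AACGTG on the other strand, in 4.69%), a D-box (TTATGTAA, in 0.935%), and an ROR element (TAGGTCA, read as TGACCTA, in 2.61%), printed 5′ to 3′ on the strand of the gene.

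Per1 E-box, chr11:69098772-69098799, plus strand: gcacccaagtcCACGTGcagggatgtgt
Cry1 E'-box, chr10:85185117-85185144, minus strand: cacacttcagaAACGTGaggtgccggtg
Cry1 E-box, chr10:85185098-85185125, minus strand: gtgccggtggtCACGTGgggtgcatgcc
Tef E-box, chr15:81802535-81802562, plus strand: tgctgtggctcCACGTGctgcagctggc
Nr1d1 E'-box, chr11:98775389-98775416, minus strand: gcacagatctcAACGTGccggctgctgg
Per3 D-box, chr4:151044852-151044881, minus strand: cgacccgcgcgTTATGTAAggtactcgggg
Per3 D-box, chr4:151044805-151044834, minus strand: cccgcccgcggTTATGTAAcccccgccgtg
Nfil3 ROR element, chr13:52981040-52981062, minus strand: gcgctcggaacTGACCTActaac

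The other motifs searched were the D-box TTACGTAA (0.119% of windows), the ROR element TGGGTCA (3.98%) and the cAMP element TGACGTCA (1.79%). Cry2 held an E'-box, the second start of Tef a further E-box, and Arntl an ROR element TAGGTCA at base 31 of the transcript. None of these letters was found in the windows of Clock and Dbp, and Per2 was not in the table. Nr1d1, shown as the partner with the largest difference, was among the 4 of 8 partners found that held a motif, and Nr1d2, Npas2, Arntl2 and Rora held none. A match describes the letters of the window and does not show that a factor was bound in these tumors.

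In HCC of p53LKO mice, Dbp was 8.34-fold lower than in HCC of control mice. The REV-ERB genes Nr1d1 and Nr1d2 were 10.4-fold and 3.30-fold lower. Per3 was 2.12-fold lower at an adjusted p of 0.04995, was well above background on 2 of 5 p53LKO HCC arrays and held its call in 8 of 27 alternative settings. The other 8 clock genes, among them Arntl, Clock, Per1 and Per2, were not called. Of the 10 clock genes, 0 were called higher and 2 lower, where 5.19% of all 17845 genes tested were called higher and 10.8% lower. With scaling to spike-in probes, which moved the median of all genes from 0.06 to 0.79, the split turned to 6 higher (Per2, Cry1, Cry2, Arntl, Clock and Nfil3) and 1 lower (Dbp). The median difference of the 10 genes was 0.33, against 0.06 over all genes tested.

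**Figure D1:**
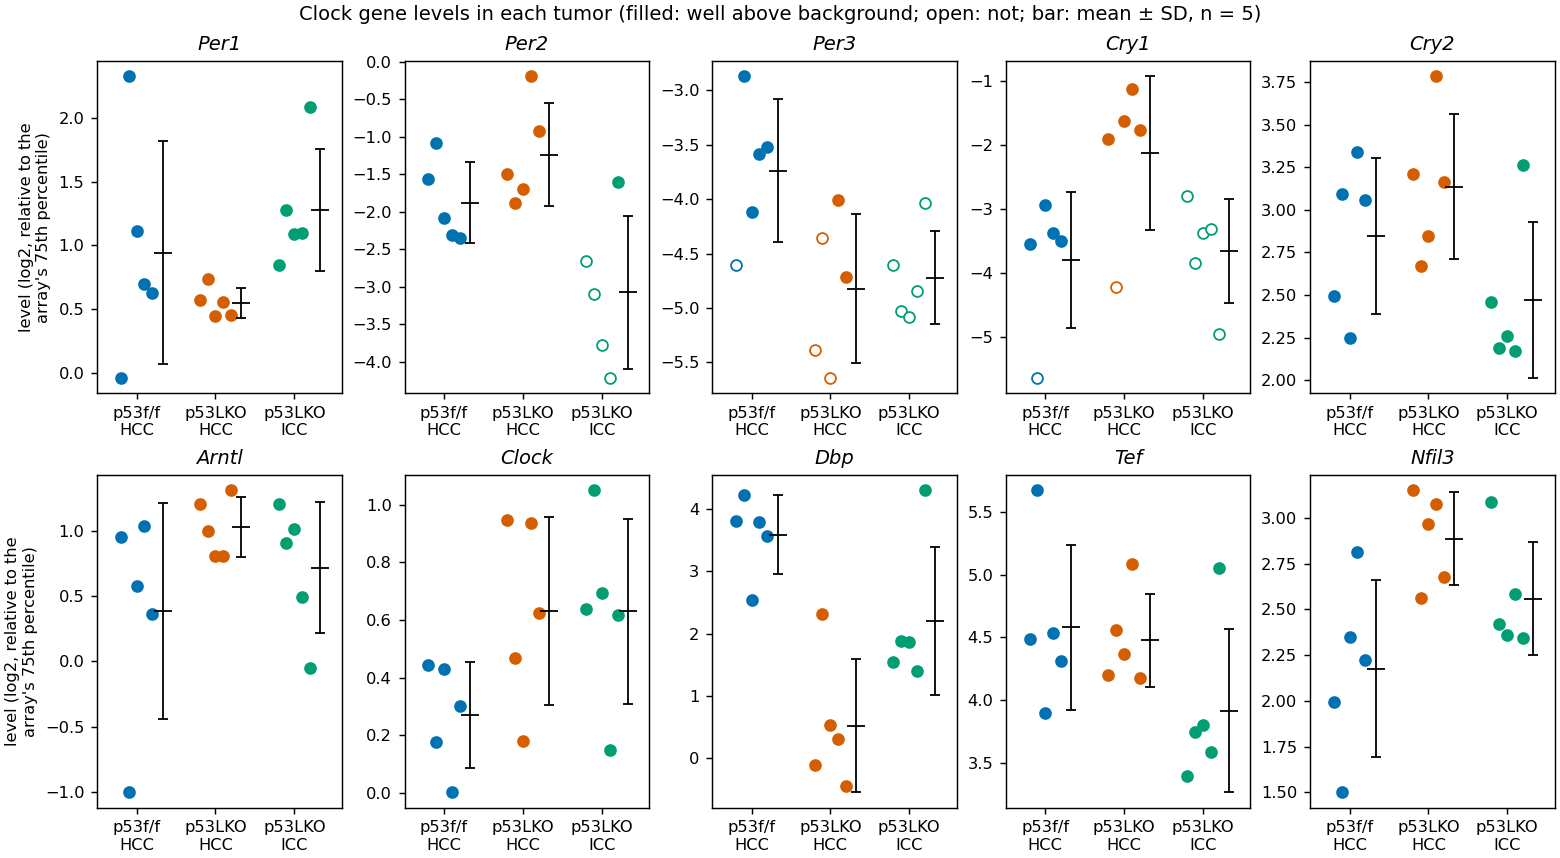
Level of each clock gene in each of the 15 tumors, as log2 signal relative to the 75th percentile of the array (y axis), by group (x axis). Points are tumors, filled where the probe was well above background, and bars give the mean ± SD (n = 5); Dbp is the one gene whose p53f/f HCC all lie above every p53LKO HCC.

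Dbp, a PAR bZIP activator of liver genes, was the clock gene with the largest difference. In the p53f/f HCC its levels were 3.81, 4.22, 2.54, 3.79 and 3.57 (mice 3681, 3715 and 3716 and tumors T1 and T2 of mouse 3717). In the p53LKO HCC they were -0.10, 2.32, 0.53, 0.32 and -0.44 (mice 3976, 5283, 3731, 3733 and 3975). Every p53LKO HCC thus lay below every p53f/f HCC, and the tumor of mouse 5283 came close to the lowest control while the other 4 lay far below. The difference was -3.06 ± 0.49 (SE, adjusted p = 0.00101, exact permutation p = 0.00794, the smallest 252 splits can give). The second Dbp probe, which lies next to the first on chromosome 7 of mm9, gave -2.54 (adjusted p = 0.00182), also without overlap. Within slide 1 (4 controls and 2 p53LKO HCC) the brighter probe differed by -2.48 and within slide 2 (1 control and 3 p53LKO HCC) by -3.43. With 1 control on slide 2, these values are given as a description. Dbp was the only one of the 10 clock genes without overlap between these groups, which 19.5% of all genes tested showed.

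The partners that stood beside Dbp were the REV-ERB genes, which are switched on by the same E-box factors. Nr1d1 read 1.02, 0.76, -0.25, 0.78 and 0.89 in the p53f/f HCC and -2.65, -0.69, -3.59, -4.50 and -2.25 in the p53LKO HCC, in the order of tumors given for Dbp. The groups did not overlap, as was so for 19.5% of all genes tested (difference -3.38 ± 0.59, SE, adjusted p = 0.00177). Mouse 5283 was again the p53LKO HCC nearest to the controls. Nr1d2 read 1.95, 3.09, 2.18, 2.10 and 2.37 against 0.66, 2.04, 0.14, -0.13 and 0.38, so that the tumor of mouse 5283 lay above the lowest control. Its difference was -1.72 ± 0.39 (SE, adjusted p = 0.0066), and a second, dimmer probe gave -1.91 (adjusted p = 0.004). Within slides 1 and 2 the difference was -2.25 and -4.33 for Nr1d1 and -0.98 and -2.24 for Nr1d2. The brighter Nr1d2 probe is placed by the array design on chromosome 19 of mm9, which is not the chromosome of the gene in RefSeq, so it may not measure Nr1d2 alone. The dimmer probe is placed on chromosome 14, that of the gene. The Nr1d1 probe has no position in the design.

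The other PAR bZIP genes did not follow Dbp. Tef, which acts at the same D-boxes as Dbp, ranged from 3.89 to 5.67 in the p53f/f HCC and from 4.18 to 5.08 in the p53LKO HCC, a difference of -0.10 (95% interval of the fit -0.80 to 0.59). Hlf, the third of these factors, ranged from -0.12 to 2.15 and from 0.71 to 1.59 (difference 0.50, adjusted p = 0.392). Whether Dbp differed more than Tef or Hlf was not tested as such, but the interval of Dbp, -4.14 to -1.98, does not meet those of Tef and Hlf, -0.44 to 1.44 for the latter. Nfil3, the repressor that acts against these factors, read 1.50 to 2.82 in the p53f/f HCC and 2.56 to 3.15 in the p53LKO HCC. Its difference of 0.71 ± 0.24 (SE) had an adjusted p of 0.0439 and stayed under 2-fold, so it was not called.

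Of the activators, none was called, though with spike-in scaling both Arntl (1.36) and Clock (1.09) were called higher. Arntl read 0.95, -1.0, 0.58, 1.04 and 0.36 in the p53f/f HCC and 1.21, 1.00, 0.81, 0.81 and 1.31 in the p53LKO HCC. The groups overlapped, the control of mouse 3715 stood far below the other 4, and the difference of 0.64 ± 0.35 (SE) had an adjusted p of 0.181. Clock ranged from 0.00 to 0.44 and from 0.18 to 0.95 (difference 0.36, adjusted p = 0.164). Among their paralogs, Npas2, which can stand in for CLOCK, differed by 1.04 (adjusted p = 0.111, and 1.39 with 0.0254 without the HCC of mouse 5283), and Arntl2 by -0.75 (adjusted p = 0.0143, under 2-fold).

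The repressors were spread in both directions. Per1, which responds to light and stress signals besides the clock, read -0.05, 2.33, 1.11, 0.69 and 0.63 in the p53f/f HCC and 0.57, 0.74, 0.44, 0.55 and 0.45 in the p53LKO HCC. The control tumors were far more spread (SD 0.88 against 0.12) and lay on both sides of the p53LKO HCC (difference -0.39, adjusted p = 0.426). Per2 ranged from -2.35 to -1.09 and from -1.88 to -0.19 (difference 0.64, adjusted p = 0.19).

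Per3 and Cry1 were dim. Per3 read -4.60, -2.87, -4.12, -3.59 and -3.52 in the p53f/f HCC, where 4 of 5 arrays were well above background, and -5.38, -4.36, -5.65, -4.01 and -4.72 in the p53LKO HCC, where 2 were. The difference of -1.08 ± 0.38 (SE) passed narrowly (adjusted p = 0.04995) and rests in part on p53LKO HCC readings that were not measured. Leaving out single tumors kept the call only without the p53f/f HCC of mouse 3681 or the p53LKO HCC of mouse 5283 or 3733, and gave -1.30 to -0.87. Cry1 read -3.54, -5.64, -2.93, -3.37 and -3.50 against -1.90, -4.22, -1.63, -1.13 and -1.76. In 4 of 5 p53LKO HCC it thus lay above every control, and in that of mouse 5283, not well above background on its array, under 4 of the 5. The difference of 1.67 ± 0.62 (SE) was over 2-fold but had an adjusted p of 0.0617. It was called with only the upper rows of the slides (2.29, adjusted p = 0.0149) and without the HCC of mouse 5283 (2.19, adjusted p = 0.00731). Cry2 ranged from 2.25 to 3.34 and from 2.67 to 3.78 (difference 0.29, adjusted p = 0.431).

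**Figure D2:**
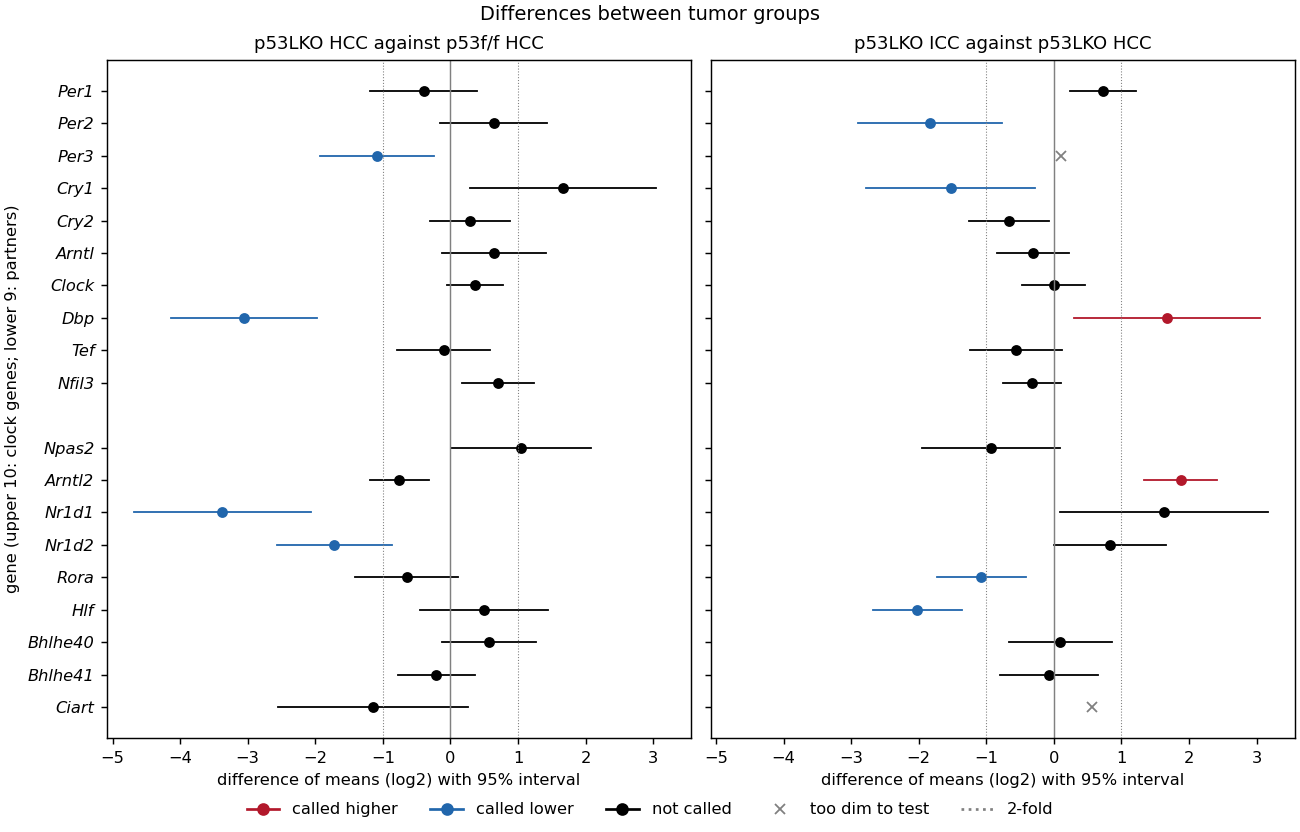
Difference of the group means (x axis, log2) with its 95% interval from the limma fit for the 10 clock genes and their 9 partners (y axis), p53LKO HCC minus p53f/f HCC on the left and p53LKO ICC minus p53LKO HCC on the right. Colours mark the calls and crosses the genes too dim to test; Dbp is called lower on the left and higher on the right, and on the right Cry1, Npas2 and Bhlhe41 were not well above background on any ICC array.

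Of the 9 partner genes, 2 were called in p53LKO HCC, both REV-ERB genes, which were lower. The shares over all genes tested were 5.19% higher and 10.8% lower. Rora, which codes for the activator ROR alpha, differed by -0.65 (adjusted p = 0.17). Of the E-box repressors, Bhlhe40 differed by 0.57, Bhlhe41 by -0.21 and Ciart by -1.15, and none was called. The only Ciart probe used is placed on chromosome 10 of mm9, not the chromosome of the gene in RefSeq, and may not measure Ciart.

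Genes that act on the clock, lie downstream of it or respond to other daily signals were counted by list. In p53LKO HCC, 0 of 8 clock modifiers (kinases and ubiquitin ligase parts, most of them for PER and CRY, and the deacetylase Sirt1), 0 of 12 rhythmic liver genes, 0 of 6 glucocorticoid-responsive genes and 0 of 8 immediate early genes were called in either direction. Over all genes tested 5.19% were called higher and 10.8% lower, shares at which a list this short may hold none, and nothing is read from these counts. Of 5 temperature-responsive genes measured, which respond to the daily swing of body temperature, the heat shock genes Hsp90aa1 and Hsph1 rose, by 1.05 and 1.57, and the cold-induced RNA-binding genes Cirbp and Rbm3 fell, by 1.42 and 1.01 on the log2 scale (adjusted p = 0.0348, 0.0156, 0.008 and 0.0131). Cirbp and Rbm3 did not overlap between the groups, as was so for 19.5% of all genes tested. The brightest Rbm3 probe is placed on chromosome 13 of mm9, and a dimmer one on chromosome X, that of the gene in RefSeq, fell by 1.14.

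Among cell type markers, 1 was called between the HCC groups. Of the 6 hepatocyte, 4 cholangiocyte, 5 fibroblast and stellate cell, 4 macrophage, 3 T cell and 3 proliferating cell markers tested, 0 were called, and of 4 endothelial markers Stab2, a scavenger receptor of liver sinusoids, was called lower. With 5.19% of all genes tested called higher and 10.8% lower, lists this short may hold none. The mean log2 level of the hepatocyte markers ran from 7.09 to 8.34 in the p53f/f HCC and from 7.09 to 7.52 in the p53LKO HCC. Cholangiocyte markers ran from -2.82 to 0.23, the highest value being that of control tumor T2 of mouse 3717, and from -2.88 to -1.32. The part of tissue makeup in the differences was not tested.

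Between the tumor types of p53LKO mice the picture was mixed. Dbp was 3.19-fold higher in ICC than in HCC. Cry1 was called lower, with a bound of at least 1.51-fold, but was not well above background on any ICC array. Per2 was lower by a fitted 3.56-fold, with 1 of 5 ICC arrays well above background, so that the size is uncertain. The partners Hlf and Rora were lower and Arntl2 higher. Of the 9 clock genes tested, 1 was called higher and 2 lower, and over all 16961 genes tested 13.2% were called higher and 15.2% lower. The genes called lower, Per2 and Cry1, entered the test through the HCC arrays and were mostly or wholly unmeasured in ICC. For Cry1, passing the 2-fold limit rests on such ICC readings. With scaling to probes above background on all arrays, which moved the median of all genes from -0.17 to 0.20, 2 were called higher (Per1 and Dbp) and 1 lower (Per2). The median difference of the 9 genes was -0.33 against -0.17 over all genes, and the counts of the clock genes lie near those shares. Per3 was too dim in both groups to be tested.

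Dbp in ICC read 1.55, 1.88, 1.87, 1.40 and 4.30 (mice 3731, 3733, 3976, 3977 and 5283). The first 4 lay above 4 of the p53LKO HCC and below every p53f/f HCC, and the ICC of mouse 5283 lay above every other tumor of the 15. The difference from p53LKO HCC was 1.68 ± 0.62 (SE, adjusted p = 0.0476), and 1.48 with the other probe (adjusted p = 0.0442). It was not called when only arrays of the lower row were compared (1.09, adjusted p = 0.4), nor when row was a block (adjusted p = 0.335), and leaving out the ICC of mouse 5283 gave 1.15 (adjusted p = 0.0726). Of 10 tumors left out in turn, only the HCC of mouse 5283 (2.12 without it, adjusted p = 0.0124) and the ICC of mouse 3977 left the call standing. Within slide 1 (2 HCC and 1 ICC) it was 0.44 and within slide 2 (3 HCC and 4 ICC) 2.23.

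Of the Per genes, Per2 was called in ICC, Per1 was not, and Per3 was not tested. Per1 read 0.85, 1.27, 1.09, 1.09 and 2.09, above every p53LKO HCC, and its difference of 0.73 ± 0.22 (SE, adjusted p = 0.0218, exact permutation p = 0.00794) stayed under 2-fold. It was the 1 clock gene without overlap, which 30.8% of all genes tested showed. Per2 read -2.66, -3.10, -3.78, -4.22 and -1.61 against -1.50, -1.88, -1.70, -0.19 and -0.92 in HCC, in the order of mice given for each group. It was well above background on all 5 HCC arrays and on 1 of 5 ICC arrays, that of mouse 5283, which was also the one ICC within the range of the HCC. The fitted difference was -1.83 ± 0.48 (SE, adjusted p = 0.0113), but Per2 entered the test through the HCC arrays. This difference and its adjusted p thus rest on ICC readings of which most were not measured. Per2 was not called with the lower rows alone (-1.38, adjusted p = 0.154). Within slides 1 and 2 its fitted difference was -0.96 and -2.24.

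Cry1 in ICC read -2.80, -3.83, -3.38, -3.30 and -4.95, not well above background on any array, so its difference is given only as the bound of at least 1.51-fold. The bound puts the weakest signal that counted as measured in place of the ICC readings and has no interval. Cry1 entered the test through the HCC arrays, so its adjusted p of 0.0478 rests on ICC readings that were not measured. The call held in 10 of 27 settings. It was lost without any 1 tumor other than the HCC of mouse 5283 or the ICC of mouse 3731. Cry2 differed by -0.67 (adjusted p = 0.0629) and Tef by -0.56 (adjusted p = 0.163). For both, 4 of the ICC were low and that of mouse 5283 was high. The levels of the activators overlapped between the tumor types, with Arntl at -0.31 (95% interval -0.84 to 0.22) and Clock at -0.00 (-0.47 to 0.47). So did those of the repressor Nfil3, at -0.33 (-0.76 to 0.10).

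Of the 8 partners tested, Arntl2 rose by 1.87 (adjusted p = 0.000289), and Hlf and Rora fell by 2.02 and 1.07 on the log2 scale (adjusted p = 0.000545 and 0.0141). These 3 did not overlap between HCC and ICC, as was so for 30.8% of all genes tested, and over all genes tested 13.2% were called higher and 15.2% lower. The calls of Hlf and Arntl2 held in 27 of 28 alternative settings and that of Rora in 18. Hlf read -0.39, -1.68, -1.05, -0.15 and -0.95 in ICC and 0.71 to 1.59 in HCC. With the lower rows alone it still differed by -2.14 (adjusted p = 0.0146). Nr1d1 (1.63, adjusted p = 0.0791, above background on 4 of 5 ICC arrays) and Nr1d2 (0.83, adjusted p = 0.0962) were not called. Without the HCC of mouse 5283 both were (2.14 and 1.18, adjusted p = 0.019 and 0.0049). Npas2 and Bhlhe41 were not well above background on any ICC array, so no size is given, and neither was called, though Npas2 was without the HCC of mouse 5283 (adjusted p = 0.0279). The Rora difference was under 2-fold without the HCC of mouse 3976 (-0.91) or 3975 (-0.98), or the ICC of mouse 3733 or 5283 (-0.90 without the latter). Bhlhe40 (0.09) was not called, and Ciart was too dim to test.

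**Figure D3:**
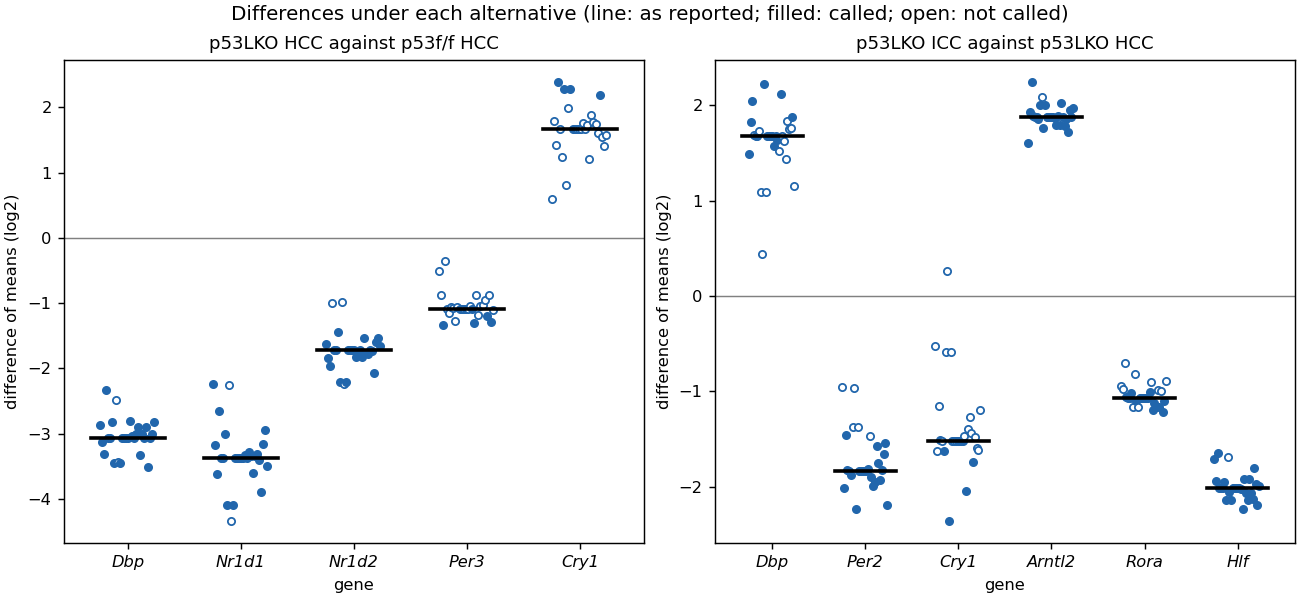
Difference of the group means (y axis, log2) for genes called or nearly called (x axis) under each alternative setting, p53LKO HCC minus p53f/f HCC on the left and p53LKO ICC minus p53LKO HCC on the right. The black line is the value reported, and points are filled where the gene was called; Dbp, Nr1d1 and Nr1d2 stay below 0 on the left, and Cry1, not well above background in any ICC, crosses 0 on the right.

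Some cell type markers also differed between the tumor types. In ICC 4 of 6 hepatocyte markers fell (Alb, Apoa1, Ttr and Hnf4a, not Cps1 and Fgb), 4 of 6 cholangiocyte markers rose (Krt19, Krt7, Epcam and Spp1, not Sox9 and Cldn4), and 4 of 5 fibroblast and stellate cell, 1 of 4 macrophage and 2 of 3 T cell markers rose. The mean level of the hepatocyte markers ran from 3.98 to 6.49 in ICC, that of the cholangiocyte markers from 1.09 to 1.43 and that of the fibroblast markers from 4.84 to 5.60, against 2.46 to 4.42 for the last in p53LKO HCC. Of the 11 rhythmic liver genes tested, 5 fell (Nampt, Alas1, Por, Insig2 and Gys2) and 2 rose (Ccrn4l and Avpr1a), beside 15.2% and 13.2% of all genes tested. Of the other lists, to be read against the same shares, 1 of 7 clock modifiers rose (Sirt1, by 1.03), 1 of 6 glucocorticoid-responsive genes rose (Sgk1) and 1 fell (Klf9), 1 of 8 immediate early genes rose (Fos, by 1.81) and 1 of 5 temperature-responsive genes rose (Rbm3, by 1.14). The part of cell makeup in the differences of the clock genes was not tested.

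Since the labels give no time of collection, tumors of the same mouse were compared. The mice 3731, 3733, 3976 and 5283 each gave 1 HCC and 1 ICC, and no source used here states that tumors of 1 mouse were collected apart. The HCC and ICC arrays of each mouse differed in slide, row or both. Dbp was higher in the ICC than in the HCC of all 4 mice, by 1.02, 1.56, 1.98 and 1.98. Per1 was higher in all 4, by 0.40 to 1.35. Nr1d1 was higher in the ICC of mice 3733, 3976 and 5283, by 2.64, 1.10 and 1.15, and in that of mouse 3731 it was not well above background, so no difference is given. Cry1 was well above background in the HCC of 3 of these mice, all but mouse 5283, and in no ICC, so no size is given. The partners Hlf and Rora were lower in the ICC of all 4 mice, and Arntl2 was higher. Nr1d2 was also higher in the ICC of all 4, by 0.003 to 1.38. The exact sign-flip test over 4 mice cannot go below p = 0.125, which Dbp, Per1, Nr1d2, Hlf, Rora and Arntl2 reached.

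**Figure D4:**
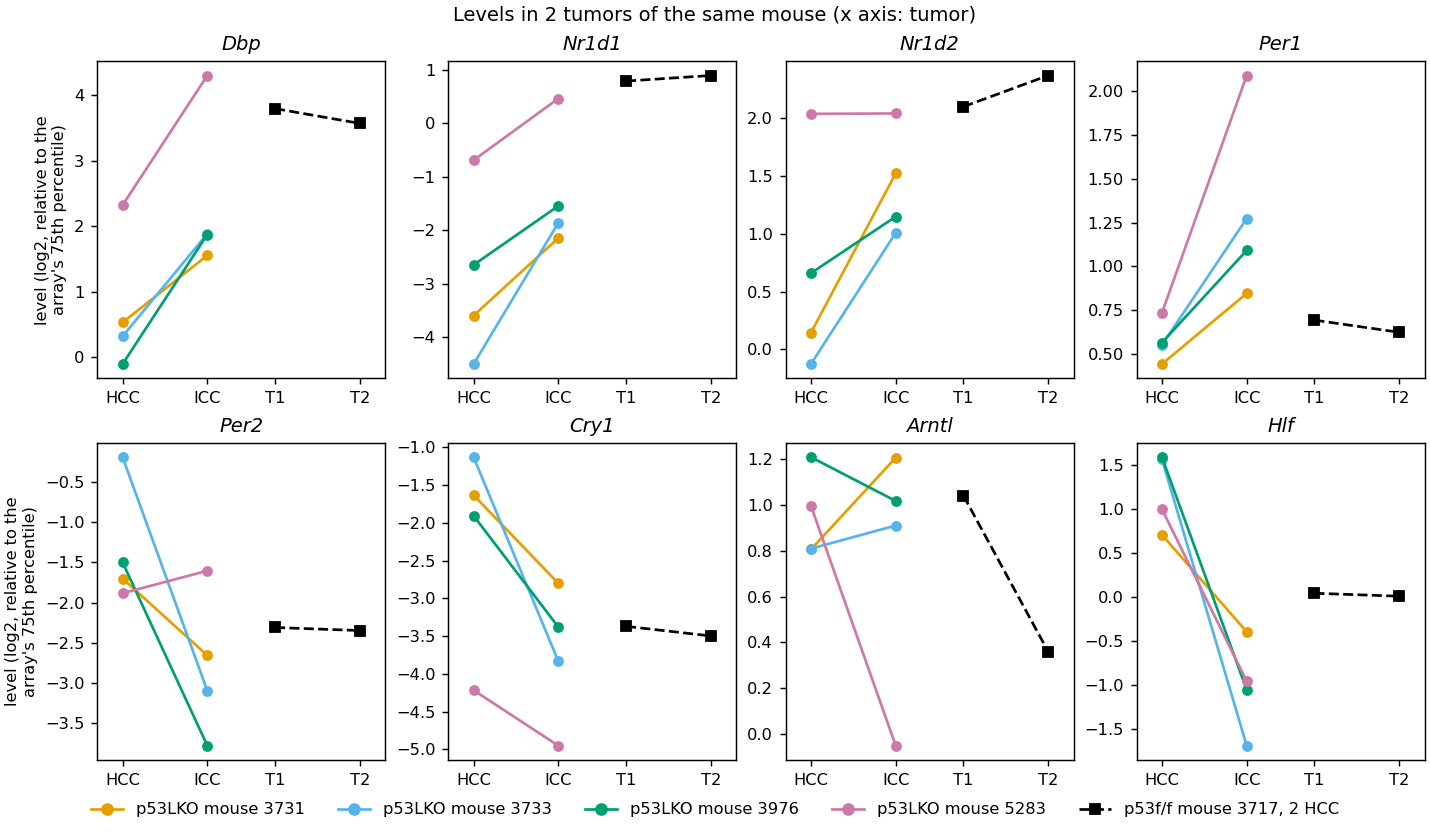
Level (y axis, log2 relative to the 75th percentile of the array) in the 2 tumors of 1 mouse (x axis), HCC and ICC of 4 p53LKO mice (coloured lines) and 2 HCC, T1 and T2, of p53f/f mouse 3717 (dashed). Dbp, Per1 and Nr1d2 (by only 0.003 in mouse 5283) were higher in the ICC of each of the 4 mice, Nr1d1 in the 3 whose ICC was well above background, and Arntl in 2 of 4.

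Arntl, in contrast, was higher in the ICC of 2 mice and lower in that of 2, with differences from -1.05 to 0.40. Clock differed by -0.25 to 0.46 and Nfil3 by -0.79 to 0.12. Per2 was lower in the ICC of 3 mice and higher by 0.28 in mouse 5283. With mouse as a block in these 4 mice, the difference of Dbp was 1.64 (adjusted p = 0.0118), and Per2 was no longer called (-1.46, adjusted p = 0.0881). These mice gave 4 of the 5 HCC and 4 of the 5 ICC, so these values are not independent of the group differences.

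Mouse 3717 gave 2 HCC of the control genotype, whose arrays lay on different slides. Their markers were unlike, with the cholangiocyte marker Spp1 at 0.16 in T1 and 4.46 in T2 and the proliferation marker Mki67 at -0.46 and 2.11. The cholangiocyte markers Sox9 (0.82 and 1.00) and Cldn4 (-2.57 and -2.74) were close. Dbp differed between the tumors by 0.23, Per1 by 0.07, Per2 by 0.04 and Nr1d1 by 0.10. Arntl differed by 0.68 and Clock by 0.30. With 1 such mouse, whether tumors of the same control mouse are more alike than tumors of different mice was not tested. No mouse gave tumors of both genotypes, so between p53f/f and p53LKO HCC the part of collection time was not tested.

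Single tumors lay at the ends of their groups in many clock genes at once, described here for genes well above background on all 5 arrays of the group. Among the p53f/f HCC, that of mouse 3715 had the lowest Arntl, Nfil3, Arntl2 and Rora and the highest Per1, Per2, Dbp, Tef, Nr1d2, Hlf and Bhlhe40, while its Nr1d1, at 0.76, lay under 3 of the other 4. Among the ICC, that of mouse 5283 had the lowest Arntl, Nfil3, Arntl2 and Rora and the highest Per1, Cry2, Dbp, Tef, Nr1d2 and Bhlhe40. The HCC of the same mouse had the highest Dbp, Nr1d1, Nr1d2 and Per1 and the lowest Nfil3 and Rora of the p53LKO HCC. It also had the lowest Per2 (-1.88) and Cry2 (2.67), unlike the ICC of that mouse, and its Arntl, at 1.00, lay in the middle. The array of this HCC had the fewest probes above background, 37.0%, and those of its ICC and of the HCC of mouse 3715 had 43.1% and 55.1%. Without the HCC of mouse 3715 the difference of Arntl between the HCC groups was 0.29, and without the HCC of mouse 5283 that of Dbp was -3.51.

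**Figure D5:**
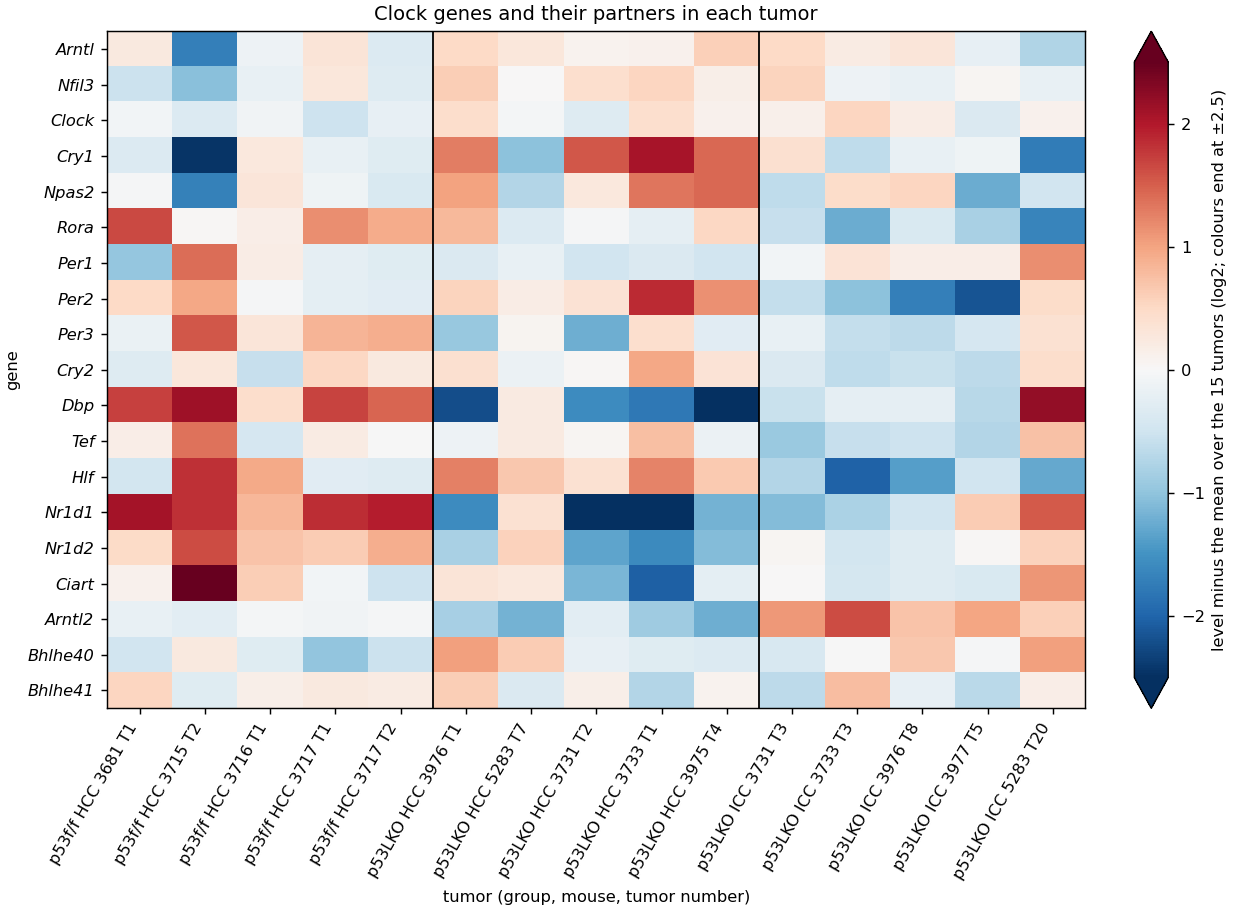
Level of each clock gene and partner (rows) in each of the 15 tumors (columns), as its log2 difference from the mean over the 15 tumors (red higher, blue lower, colours end at 2.5 in each direction). Black lines part the 3 groups; Dbp and Nr1d1 are red in the p53f/f HCC and blue in most p53LKO HCC, and the columns of p53f/f mouse 3715 and of the ICC of mouse 5283 differ from the rest of their groups in many rows.

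Which genes went with Arntl and with Dbp from tumor to tumor was described over the 15 arrays, as deviations from the group means, among 11628 other genes measured on every array. The arrays share their slides, and 5 pairs of tumors share a mouse. Per1 had nearly the lowest correlation with Arntl of all these genes (r = -0.87, rank 11627), Tef stood at -0.78, and Rora (0.72) and Nfil3 (0.62) stood near the other end. The highest were Ctps2 (0.96), Sh2d2a, Efna1, Kdm5b and Klhl25, and the lowest beside Per1 were 1810010D01Rik (-0.89), Slc28a1, Paqr7 and Pik3r1. With Dbp, Tef (0.72) and Nr1d2 (0.67) ranked 231 and 377, and Arntl stood at -0.46. The highest for Dbp were Pak1ip1 (0.91), Alkbh6, Psmb2, Pdcd6 and Slc12a7, and the lowest were Kif19a (-0.91), Krt80, BC030870, Cep85l and Zfp619. The HCC of mouse 3715 and the ICC of mouse 5283 had the lowest Arntl relative to their groups.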

How the data were processed

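RNA of 15 tumors was labelled with Cy3 and hybridised to 1-colour arrays. The authors extracted the images with Feature Extraction 10.7.3.1 (version per the submitters' processing notes), which gives each spot a deposited intensity (processed signal) with background subtracted, and flags, deposited as other columns, for signal well above background. A table of log2 values deposited by the authors matched log2 intensity minus the 75th percentile of each array, centred per probe on HCC arrays (HCC columns) or p53LKO arrays (ICC columns). It was used as an alternative for the HCC comparison.

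Spots of 1 probe were averaged as log2 intensity, and the 75th percentile of 55681 non-control probes was subtracted. Probes that passed the background flag on 3 or more arrays of 1 group were fitted with limma 3.58.1 in R 4.3.3 (lmFit, eBayes), with Benjamini-Hochberg adjustment over 36082 probes (HCC) and 32669 (ICC against HCC), and the fit was tested on simulated data. Figures used Python 3.11.15 and matplotlib 3.10.9. A gene is its brightest probe, and other probes are given where they matter. Where 1 group was not well above background on any array, a fold is a bound. The number of arrays limits the precision. Positions are those of mm9 for probes and GRCm38.p6 for promoters, and the 2 were not combined. Named are the 10 clock genes, 9 partners, members of other lists past the thresholds and the 5 genes most and least like Arntl and Dbp. The members and lists were chosen with earlier results of these data known. A further partner is not reported here.

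Pairing of HCC and ICC rests on mouse numbers in the labels. Deviations of tumors of the same mouse correlated at -0.14 to 0.07 over all genes (4 pairs), and those of other pairs at -0.26 to 0.28 (16 pairs). Mouse 3717 gave 2 of the 5 control tumors, so p-values treat them as separate samples.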

Additional observations from a re-analysis of the deposited data

Results flagged for a closer look

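Of 57 groups of 5 tumors (19 genes in 3 groups), 6 held a tumor farther from the others than Dixon's limit, where chance flags about 1 group in 20. In p53f/f HCC, Cry1 of mouse 3715 read -5.64, not well above background, against -3.54 to -2.93 in the other 4, and Nr1d1 of mouse 3716 read -0.25 against 0.76 to 1.02. In p53LKO HCC, Cry1 of mouse 5283 read -4.22, not well above background, against -1.90 to -1.13. In ICC, 3 genes of mouse 5283 stood above the other tumors, Dbp at 4.30 against 1.40 to 1.88, Tef at 5.05 against 3.40 to 3.80 and Cry2 at 3.26 against 2.17 to 2.46.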

How the results depend on the processing

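Dbp kept its direction between the HCC groups in all 28 alternatives and its call in 26, Nr1d1 likewise in 26 and Nr1d2 in 25, while the call of Per3 held in 8 of 27. Between ICC and HCC, Dbp kept its direction in all 28 and its call in 13, Per2 its call in 22 of 27, Cry1 in 10 of 27 and Rora in 18 of 28. The cause was not tested. Signal over background limits Per3, Cry1, Npas2, Bhlhe41 and Ciart, which have no value where every array of both groups had to be above background. That setting also left out Per2 and Nr1d1 between ICC and HCC.

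The 2 clock genes called between the HCC groups became 1 with normexp, quantile normalization, no filter, signal above background on every array, slide as a block, the adjusted methods' t-test, the mean of all probes of a gene or the mean of both tumors of mouse 3717. They became 7 (6 higher and 1 lower) with scaling to the 7 spike-in probes and 0 in slide 1 or slide 2 alone, where slide 2 held 1 control, assumed to vary like the p53LKO HCC, so that its test says little about the calls, and 1 to 3 when single tumors were left out. The 3 called between ICC and HCC became 1 with normexp, no filter, signal above background on every array or the adjusted methods' t-test, and 0 with row as a block, the lower row alone or slide 1 alone (1 ICC), and 1 to 3 when single tumors were left out. With mouse as a random replicate block they were 3, and with mouse as a replicate block in the 4 mice with both tumors 2. The unadjusted methods' t-test called 3 (HCC) and 2 (ICC against HCC).

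Spike-in scaling moved the median of all genes between the HCC groups from 0.06 to 0.79, so that 6082 genes were called higher and 795 lower in place of 926 and 1925. With it Per1 (0.33), Tef (0.62), Rora (0.076) and Bhlhe41 (0.51) changed sign in p53LKO HCC. Tef also did so in slide 2 alone (0.23) and Bhlhe41 with quantile normalization (0.47). Scaling to probes above background on all arrays moved the median to -0.18 (HCC) and from -0.17 to 0.20 (ICC against HCC), where 439 and 3250 genes were called higher and 2705 and 1403 lower. In ICC it turned Arntl (0.060), Clock (0.37) and Nfil3 (0.042). The fitted value of Bhlhe41 (0.30) changed sign too. Bhlhe41 was not well above background on any ICC array, so this value shows neither a size nor a direction. With normexp 710 and 788 genes were called higher and lower between the HCC groups and 1548 and 1998 in ICC, and with signal above background on every array 751 and 432, and 982 and 1932.

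Clock in ICC, at -0.00, also turned with normexp (0.013), quantile normalization (0.080), spike-in scaling (0.0076), slide as a block (0.014), slide 2 alone (0.046) and mouse as a random (0.0026) or fixed (0.12) block. Bhlhe40 turned with row as a block or the lower row alone (-0.58) and slide 1 alone (-1.22). The fitted value of Bhlhe41 changed sign with normexp (0.14), slide 2 alone (0.18) and the mouse block (0.11). Bhlhe41 was not well above background on any ICC array, so these values show neither a size nor a direction. In slide 1 alone Arntl (0.10) and Nfil3 (0.23) turned, as did the fitted values of Cry1 (0.26) and Nr1d1 (-0.48). On the ICC array of that slide, from mouse 3731, Cry1 and Nr1d1 were not well above background. Their fitted values in slide 1 thus show neither a size nor a direction. Without single tumors, Tef between the HCC groups ran from -0.27 to 0.17, and in ICC Clock from -0.11 to 0.12 and Bhlhe40 from -0.10 to 0.31. The fitted values of Bhlhe41 in ICC then ran from -0.29 to 0.10. They rest on ICC readings that were not measured and show neither a size nor a direction.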
